A study of Mus musculus with 8 samples.

Results

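The 8 mouse genes Ptprd, Ptprf, Ptprs, Ptprk, Ptprm, Ptprt, Ptprg and Ptprn2 encode receptor-type protein tyrosine phosphatases, and they are described here by their content of 5-hydroxymethylcytosine (5hmC). All CpG calls that lay between the annotated start and end of each gene in the mouse build GRCm38 were taken, with no selection by level. This gave 8 of the 49943 genes of the gene table and 3264 of the 1849087 deposited calls (0.177%), at 3152 positions on 1684 reads.

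The study followed 5hmC in one line of mouse embryonic stem cells whose own Tet1, Tet2 and Tet3 genes were inactivated (TET-TKO). In this line doxycycline induces the catalytic domain of mouse TET3, without the rest of the protein, from a PiggyBac transposon that also drives an mCherry reporter. Replicates A, B and C had no doxycycline (0 h), another A and B were kept for 6 h at 1 µM and another A, B and C for 12 h, which makes 8 libraries. The triple knockout, the transposon and medium with 50 µg/ml ascorbate, a cofactor for TET enzymes, were common to every group, and the labels do not say whether replicates came from separate cultures, so p-values measure the spread between libraries, which may be technical. The assay, APOBEC-coupled epigenetic sequencing (ACE-seq), shields 5hmC with glucose and then deaminates other cytosines enzymatically, so that the level given below, the percentage of CpG calls left undeaminated, counts 5hmC together with cytosines the enzyme missed.

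Receptor-type tyrosine phosphatases span the cell membrane and remove phosphate from tyrosines of intracellular proteins, while their outer parts resemble cell adhesion molecules. Ptprd, Ptprf and Ptprs form the LAR group, whose immunoglobulin and fibronectin domains bind proteoglycans and synaptic partners. Ptprk, Ptprm and Ptprt carry a MAM domain and adhere to their own kind on neighbouring cells, Ptprg has a carbonic anhydrase-like domain that binds contactins, and Ptprn2 sits in the membrane of secretory granules and has little or no phosphatase activity. TET enzymes make 5hmC from 5-methylcytosine, and the CpG-rich starts of many mammalian genes carry little of that substrate.

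Start regions came from RefSeq (GRCm38.p6), which gave 9 of them for 7 of the 8 genes, and Ptprd had no entry. Those of Ptprm, Ptprg, Ptprt and Ptprf and the first of Ptprs are printed because CpG-dense reads were sequenced in or beside them, and the internal start of Ptprg because it differs in CpG content. Each runs 5′ to 3′ on the strand of its gene, from 250 bases before the start to 30 after it, with every CpG in capitals. They lie at chr17:67354430-67354709 (minus strand), chr14:11553303-11553582 (plus), chr14:12189693-12189972 (plus), chr2:162661118-162661397 (minus), chr4:118291368-118291647 (minus) and chr17:56476451-56476730 (minus).
Ptprm: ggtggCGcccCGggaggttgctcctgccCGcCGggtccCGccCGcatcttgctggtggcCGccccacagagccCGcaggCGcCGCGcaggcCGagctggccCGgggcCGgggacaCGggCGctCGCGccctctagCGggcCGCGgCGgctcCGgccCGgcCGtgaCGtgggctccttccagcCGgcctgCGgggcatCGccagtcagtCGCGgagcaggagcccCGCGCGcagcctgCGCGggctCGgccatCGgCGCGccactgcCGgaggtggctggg
Ptprg: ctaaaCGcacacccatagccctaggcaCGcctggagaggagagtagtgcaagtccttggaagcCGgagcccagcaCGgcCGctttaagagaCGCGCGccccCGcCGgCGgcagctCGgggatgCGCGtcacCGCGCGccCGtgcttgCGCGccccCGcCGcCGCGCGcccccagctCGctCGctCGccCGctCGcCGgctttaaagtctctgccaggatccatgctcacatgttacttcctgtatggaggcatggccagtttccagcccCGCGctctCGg
Ptprg internal start: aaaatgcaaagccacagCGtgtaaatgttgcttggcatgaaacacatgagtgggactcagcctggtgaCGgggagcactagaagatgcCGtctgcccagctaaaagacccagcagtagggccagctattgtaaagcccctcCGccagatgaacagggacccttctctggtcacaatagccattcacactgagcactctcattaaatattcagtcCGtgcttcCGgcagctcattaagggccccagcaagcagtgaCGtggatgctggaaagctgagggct
Ptprt: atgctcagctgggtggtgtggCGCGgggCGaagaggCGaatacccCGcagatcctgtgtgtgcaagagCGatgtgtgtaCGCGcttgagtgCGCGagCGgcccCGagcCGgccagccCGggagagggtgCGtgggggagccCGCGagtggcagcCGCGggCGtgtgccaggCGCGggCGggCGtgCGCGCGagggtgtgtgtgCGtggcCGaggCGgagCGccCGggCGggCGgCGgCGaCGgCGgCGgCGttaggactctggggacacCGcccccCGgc
Ptprf: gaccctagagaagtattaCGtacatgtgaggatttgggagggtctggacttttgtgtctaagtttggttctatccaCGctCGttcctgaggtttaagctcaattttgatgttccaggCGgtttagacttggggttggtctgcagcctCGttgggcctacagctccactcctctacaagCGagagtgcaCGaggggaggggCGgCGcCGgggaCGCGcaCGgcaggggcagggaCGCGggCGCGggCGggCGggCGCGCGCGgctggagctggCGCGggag
Ptprs first start: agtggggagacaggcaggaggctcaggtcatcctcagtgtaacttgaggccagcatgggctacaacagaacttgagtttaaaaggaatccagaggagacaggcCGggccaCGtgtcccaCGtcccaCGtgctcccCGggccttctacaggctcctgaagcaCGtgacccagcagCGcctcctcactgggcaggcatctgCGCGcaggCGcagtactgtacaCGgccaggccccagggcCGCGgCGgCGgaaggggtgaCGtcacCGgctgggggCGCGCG
Over the full 300 bases of the table's windows, CG, a motif that reads the same on both strands, occurred 46 times at Ptprt, 43 at Ptprm, 38 at Ptprk, 36 at the first start of Ptprg, 30 at Ptprf, 24 at Ptprn2, and 21 and 18 at the 2 starts of Ptprs. The internal start of Ptprg had 7, the median of all 32851 start windows, of which 1.65% held as many CpGs as Ptprt and 52.1% as many as the internal start of Ptprg. Calls fell into 3 of the 9 windows (15 in Ptprf at 0 h, 7 in the second of Ptprs at 0 h and 6 in Ptprm at 12 h), and every one of them lay on a CpG of the table's sequence.

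Coverage was thin and uneven among the 8 genes. Ptprd is the longest at 2271 kb (chr4:75941237-78211742) and had 359 calls, or 15.8 per 100 kb, while the shortest, Ptprs (64.1 kb, chr17:56412426-56476561, minus strand) and Ptprf (83.2 kb, chr4:118208213-118291405, minus strand), had 196 and 220 calls, or 306 and 264 per 100 kb. The other 5 genes lay below the median of protein-coding genes, which was 110 calls per 100 kb over 21887 genes. Ptprk (523 kb, chr10:28074820-28597397, plus strand) had 192 calls, or 36.7 per 100 kb, and Ptprt (1139 kb, chr2:161521988-162661147, minus strand) had 609, or 53.5 per 100 kb. Ptprm (688 kb, chr17:66666848-67354491, minus strand) had 574 calls, Ptprg (689 kb, chr14:11553440-12242041, plus strand) 585 and Ptprn2 (792 kb, chr12:116485695-117278167, plus strand) 529. No protein-coding gene overlapped any of these spans, although 7 of the 8 overlapped non-coding genes, pseudogenes or microRNA genes, such as Mir153 inside Ptprn2. Reads differed too: 68.5% of the reads in Ptprd held a single CpG, against 20.6% in Ptprf. Since 99.2% of the 3152 positions were called once, levels are given for genes and not for single CpGs.

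Library totals ran from 75023 to 485941 calls, and library levels averaged 1.13% ± 0.199 at 0 h (SD, n = 3), 6.42% ± 0.212 at 6 h (n = 2) and 24.1% ± 2.36 at 12 h (n = 3). Because reads with many CpGs came mostly from CpG-rich regions and had low levels, each call was also set against an expected level, the level of its own library among reads with as many CpGs (1, 2, 3, 4 to 5, 6 to 7, 8 to 10, or 11 or more). The difference, in percentage points, is called the deviation.

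At 0 h the level summed over all calls of the 8 genes was 4 of 294 calls (1.36%), 1 of 126 (0.794%) and 5 of 153 (3.27%) in libraries A, B and C. At 6 h it was 18 of 130 (13.8%) in A and 41 of 492 (8.33%) in B, and at 12 h it was 206 of 792 (26.0%), 230 of 911 (25.2%) and 115 of 366 (31.4%) in A, B and C. All 12 h libraries lay above both 6 h libraries, and these above all 0 h libraries. The 12 h mean was 27.6% ± 3.37 (SD, n = 3) where 25.0% was expected, a deviation of 2.54 ± 1.07 points that was positive in each of the 3 libraries (3.46, 1.37 and 2.79 points). A positive deviation was not particular to these genes. From 5 to 50 kb of a start, all genes with a start site had 26.9% at 12 h where 24.6% was expected. They had 25.6% beyond 50 kb where 24.8% was expected, 25.1% from 1 to 5 kb where 23.8% was, and 9.32% within 1 kb where 15.1% was. At 6 h 6.54% was expected in A and 6.73% in B, and the deviations were 7.30 and 1.61 points, a mean of 4.46 ± 4.03 points (SD, n = 2). The deviation at 0 h was 0.677 ± 1.24 points, from 1.81% ± 1.30 (SD, n = 3), and overlapped that at 12 h. No p is given for this pooled value, because the genes were grouped with earlier results of these data known.

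At 6 h the pooled level rested to a large degree on a single molecule. Ptprs was covered in library 6 h A by 1 read only, on which 8 of 13 CpGs were undeaminated. Without Ptprs the 6 h libraries stood at 8.49% ± 0.0746 (SD, n = 2), against 11.1% ± 3.90 with it, and their deviation was 1.62 ± 0.133 points. The gain by 6 h over 0 h, as a share of the gain by 12 h, was accordingly 26.7% for the other 7 genes and 36.0% for all 8, beside 23.0% for the libraries as a whole.

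**Figure D1:**
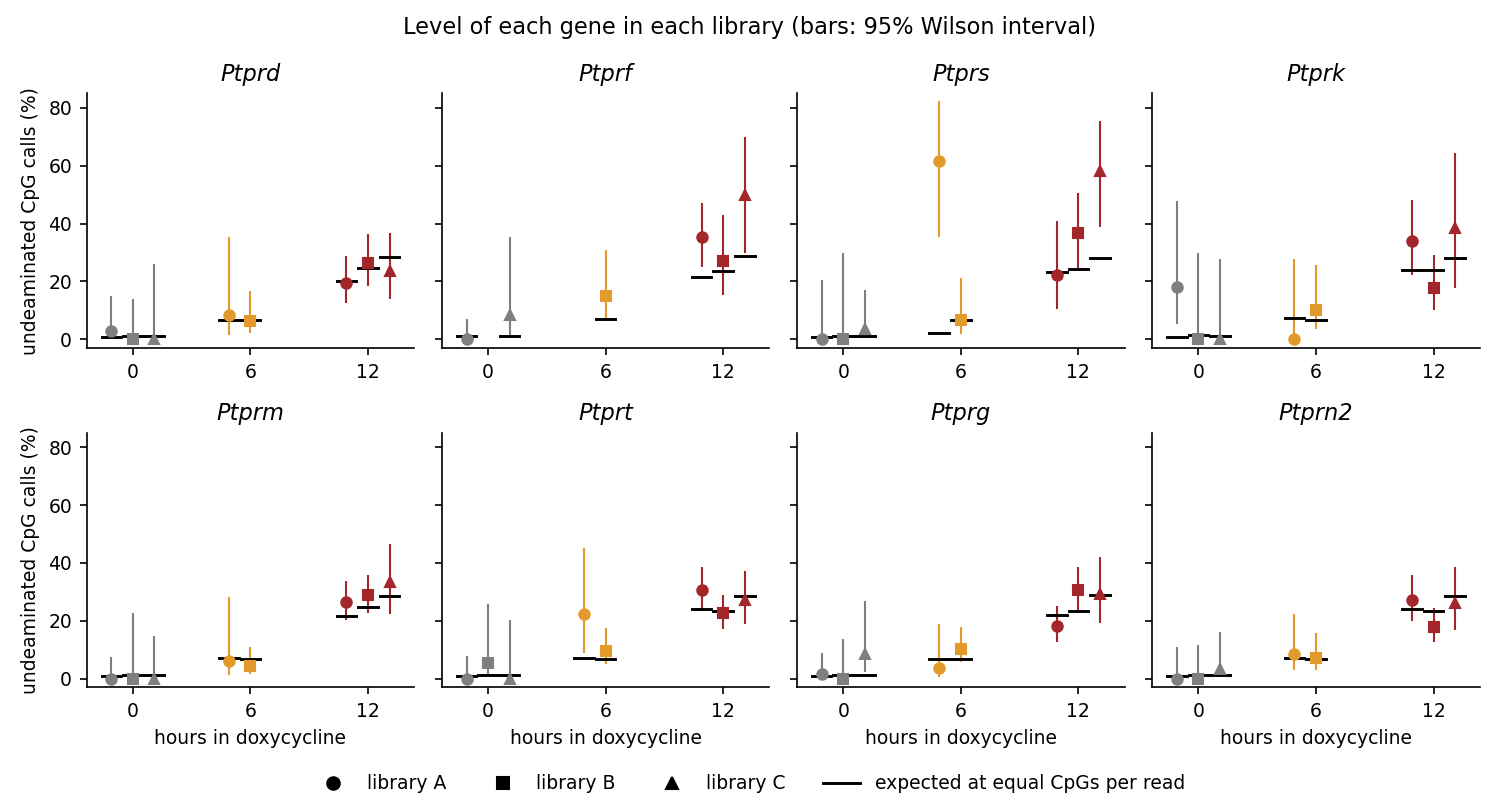
Level of each of the 8 genes in every library (vertical axis, percent of CpG calls undeaminated, with 95% Wilson intervals) against hours in doxycycline, with libraries A, B and C side by side and black bars for the level expected at equal CpGs per read. Ptprf has no calls in 0 h B and 6 h A; Ptprs stands at 61.5% in 6 h A on 1 read, and the 12 h points of Ptprm lie above their expected bars by 4.13 to 4.78 points.

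Among the LAR group, Ptprs and Ptprf had the highest 12 h means of the 8 genes and also the widest spread. Ptprs, a receptor for heparan and chondroitin sulfate proteoglycans on axons, had 0 of 15, 0 of 9 and 1 of 29 undeaminated calls at 0 h in A, B and C, 8 of 13 and 2 of 30 at 6 h in A and B, and 6 of 27, 18 of 49 and 14 of 24 at 12 h in A, B and C. The 12 h libraries therefore differed among themselves, at 22.2, 36.7 and 58.3% (mean 39.1% ± 18.2, SD, n = 3), and the lowest of them was just below its expected level. These 100 calls at 12 h came from 34 reads. Library 12 h C had 9 reads in Ptprs, and without the largest of them, which had 6 of 7 CpGs undeaminated, its level was 47.1%.

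Ptprf, the LAR protein itself, had no call in 0 h B or 6 h A. It had 0 of 50 and 1 of 12 undeaminated calls at 0 h in A and C, 5 of 33 at 6 h in B, and 24 of 68, 10 of 37 and 10 of 20 at 12 h in A, B and C. The groups did not overlap, the 12 h mean was 37.4% ± 11.6 (SD, n = 3), and each 12 h library exceeded its expected level, by 13.8, 3.54 and 21.3 points. Behind the 12 h level stood 44 reads, 24 of which carried an undeaminated call. Ptprd, which pairs with Slitrk and interleukin-1 receptor family proteins at synapses, was at the other end of the order. Its undeaminated calls numbered 1 of 34, 0 of 24 and 0 of 11 at 0 h in A, B and C, 1 of 12 and 3 of 48 at 6 h in A and B, and 17 of 88, 24 of 91 and 12 of 51 at 12 h in A, B and C. With 23.1% ± 3.55 at 12 h (SD, n = 3), 2 of its 3 libraries lay below their expected level.

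In the MAM group the 3 genes had similar 12 h means and unequal precision. Ptprm, which adheres to itself between cells and associates with cadherins, had no undeaminated call among 47, 13 and 22 at 0 h in A, B and C, a pooled 0 of 82 that allows up to 3.66%. It had 1 of 16 and 4 of 90 at 6 h in A and B, and 41 of 155, 51 of 177 and 18 of 54 at 12 h in A, B and C. The 12 h libraries agreed within a few points of each other, at 26.5, 28.8 and 33.3% (mean 29.5% ± 3.50, SD, n = 3), and the 6 h libraries, at 6.25 and 4.44%, were both below the 7.17 and 6.71% expected. Ptprt, a neuronal member of the group, had 0 of 46, 1 of 18 and 0 of 15 at 0 h in A, B and C, 4 of 18 and 9 of 93 at 6 h in A and B, and 44 of 144, 43 of 190 and 23 of 85 at 12 h in A, B and C. Its 6 h libraries were both above expectation, by 15.1 and 2.95 points, whereas at 12 h library A lay 6.55 points above it and B and C lay 0.608 and 1.66 points below (mean level 26.7% ± 3.97, SD, n = 3).

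Ptprk, the other gene of the MAM group, had the fewest calls and was the one gene in which the 12 h and 0 h libraries overlapped. It had 2 of 11, 0 of 9 and 0 of 10 undeaminated calls at 0 h in A, B and C, 0 of 10 and 3 of 30 at 6 h in A and B, and 16 of 47, 11 of 62 and 5 of 13 at 12 h in A, B and C. Library 12 h B, at 17.7%, lay below library 0 h A, at 18.2%. Both undeaminated calls of 0 h A were on 1 read, and without that read it stood at 0. The 12 h mean was 30.1% ± 10.9 (SD, n = 3).

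Ptprg, the carbonic anhydrase-like receptor, had 1 of 60, 0 of 24 and 2 of 23 undeaminated calls at 0 h in A, B and C, 1 of 26 and 10 of 98 at 6 h in A and B, and 27 of 149, 45 of 147 and 17 of 58 at 12 h in A, B and C. At 6 h library A lay within the 0 h range and B above it, and at 12 h the libraries straddled expectation, with A 4.06 points below, B 7.12 points above and C 0.541 points above (mean level 26.0% ± 6.87, SD, n = 3). Ptprn2, the granule protein also known as phogrin, had 0 of 31, 0 of 29 and 1 of 31 at 0 h in A, B and C, 3 of 35 and 5 of 70 at 6 h in A and B, and 31 of 114, 28 of 158 and 16 of 61 at 12 h in A, B and C. Library 12 h B was 5.79 points below its expected level and A was 3.15 points above, around a mean level of 23.7% ± 5.21 (SD, n = 3).

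From high to low the 12 h means thus ran Ptprs, Ptprf, Ptprk, Ptprm, Ptprt, Ptprg, Ptprn2 and Ptprd. The ranges of the 12 h libraries overlapped between every pair of neighbours in this order. Every 12 h library was above every 0 h library in 7 of the 8 genes, and in all 5 that reached 10 calls in each library; among all 346 genes that did so the share was 98%. Every 6 h library was above every 0 h library in 4 of the same 5 genes, the exception being Ptprg, where the share over all genes was 48.3%. The gain between 12 h and 0 h was smallest in Ptprd, at 22.1 points, and largest in Ptprs, at 37.9 points. Two-sided exact permutation tests of single genes gave p = 0.1 in 6 of them (0.133 after Benjamini-Hochberg adjustment over the 8), which is the smallest p that 3 against 3 libraries allow, and 0.2 in Ptprk and in Ptprf, which had 2 libraries at 0 h.

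Whether a gene gained more or less than its libraries was tested with limma on the deviation at equal CpGs per read, over all 346 genes with at least 10 calls in each library. Ptprd, Ptprm, Ptprt, Ptprg and Ptprn2 entered this fit. Ptprk and Ptprs fell short in 1 library each, with 9 calls, and Ptprf had none in 2 libraries. Of the 5 genes, none passed an adjusted p of 0.05 for 12 h against 0 h, where 0.867% of all genes passed, and the median estimate of the 5 was -0.337 points beside a median of 0.621 over all 346 genes (quartiles -2.28 and 3.29). At an unadjusted p under 0.05, 1 of the 5 genes passed, Ptprm, and 42 of all genes.

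Ptprm deviated by 4.78, 4.13 and 4.58 points at 12 h in A, B and C, against -0.827, -1.34 and -1.27 points at 0 h. These libraries did not overlap, which held in 15.3% of the genes tested, and Ptprm was the one of the 5 where it did. The 0 h values are all negative because no call was undeaminated there. The limma estimate for 12 h against 0 h was 5.45 ± 1.63 points (SE, 95% interval 1.78 to 9.11), with an adjusted p of 0.231, and placed Ptprm 44th from the top of the 346 genes. On a logit scale the estimate turned negative, at -0.24. The limma interval follows the spread between libraries, and the 3 deviations at 12 h had an SD of only 0.331 points. Counting error alone gave a wider one: for the pooled 12 h level, 110 of 386 calls, the exact 95% interval was 24.0 to 33.3%. In the quasi-binomial test, whose spread was kept at or above counting error, the unadjusted p was 0.227.

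For the other 4 genes the intervals included 0. The estimate for 12 h against 0 h was 1.67 ± 2.90 points in Ptprt (limma, 95% interval -4.85 to 8.18), and leaving out library 0 h A or 12 h A turned its sign. Ptprg, with -0.337 ± 3.50 points (-8.21 to 7.54), changed sign without 12 h A or 0 h C. Ptprd was at -1.38 ± 2.60 points (-7.23 to 4.47) and changed sign without 0 h A, and Ptprn2 was at -1.93 ± 2.49 points (-7.52 to 3.66) and changed sign without 12 h B. With the minimum lowered to 5 calls, Ptprs came in at 11.9 ± 12.2 points and Ptprk at -5.21 ± 8.36 points, both far from an adjusted p of 0.05 in limma (0.787 and 0.871).

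**Figure D2:**
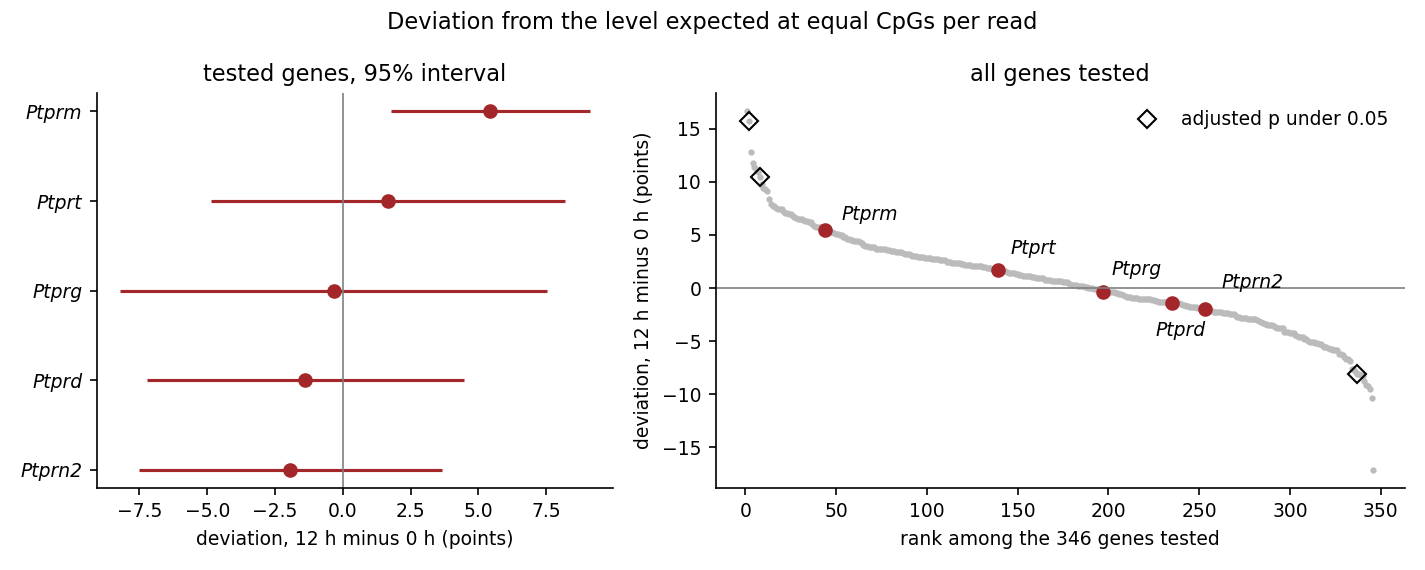
Left, limma estimates of the deviation at equal CpGs per read, 12 h minus 0 h, in percentage points with 95% intervals for the 5 genes with enough calls. Right, the same estimate for all 346 genes in order of size, with the 5 genes in red and the 3 genes past an adjusted p of 0.05 as diamonds; Ptprm is at rank 44 with 5.45 points and the other 4 genes lie in the middle of the range.

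Neither interval of the time course singled out one of the 5 genes. For 6 h against 0 h, none passed the adjusted p in limma (0% of all genes) and none an unadjusted p under 0.05, which 22 of the 346 genes did. For 12 h against 6 h, again none passed the adjusted p (0% of all genes, with 34 at the unadjusted p), and Ptprm alone of the 5 passed the unadjusted one. Its deviations of -0.917 and -2.27 points at 6 h in A and B gave an estimate of 6.53 ± 2.15 points for 12 h against 6 h, with an adjusted p of 0.331 from limma. Both contrasts share libraries with that of 12 h against 0 h.

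Set against the plain library level, without regard to CpGs per read, Ptprm came to 6.09 ± 1.82 points for 12 h against 0 h and an adjusted p of 0.149 in limma, where 2.02% of the 346 genes passed. A comparison with 250 kb on either side of the gene could be made for Ptprm and Ptprt among 246 genes. The body exceeded its flanks, 12 h against 0 h, by 3.78 ± 2.64 points in Ptprm and by 3.95 ± 5.10 points in Ptprt, with adjusted p values of 0.631 and 0.863 in limma. No gene passed in this comparison (0%), with 24 at the unadjusted p.

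The 3 sequencing runs, read from the read names, were each looked at alone. The pooled level of the 8 genes at 12 h exceeded that at 0 h by 19.4, 24.8 and 25.8 points in runs 1, 2 and 3. In the smallest, run 1, the 12 h level was 26 of 134 calls (19.4%) and lay below the expected 23.4%, while in runs 2 and 3 it lay above (26.6% where 24.6% was expected, and 27.7% where 23.9% was). The deviation of Ptprm at 12 h was uneven as well, at -1.94 points on 17 calls in run 1, 8.23 points on 182 calls in run 2 and 1.36 points on 187 calls in run 3, against -1.14, -1.03 and -1.02 points at 0 h.

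Near their start sites the 12 h calls of the 7 genes with a RefSeq start were almost all deaminated. Within 1 kb there were 0 undeaminated of 47 calls on 4 reads, which allows up to 6.38%, where 5.55% was expected at equal CpGs per read. Ptprm gave 20 of these calls, Ptprg 14, Ptprt 12 and Ptprn2 1, and Ptprf, Ptprs and Ptprk gave none. From 1 to 5 kb there were 2 of 42 (4.76%, exact 95% interval 0.582 to 16.2) where 23.7% was expected, on 14 reads. Ptprs gave 17 of these 42, Ptprg 16, Ptprk 5, Ptprm 2, Ptprf 1 and Ptprn2 1, and Ptprt gave none. The 12 h calls of both classes came from libraries A and B, none from C, with 0 of 22 in A and 2 of 20 in B from 1 to 5 kb. These 2 classes together gave 2 of 89 calls on 18 reads (2.25%, exact interval 0.273 to 7.88), and both undeaminated calls were in Ptprg, while Ptprm had 0 of 22, Ptprs 0 of 17 and Ptprt 0 of 12. Calls from the same read are not independent, so the intervals are too narrow.

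Farther out the summed levels lay above expectation, most from 5 to 50 kb and with Ptprs and Ptprf giving 144 of the 295 calls there. From 5 to 50 kb the level at 12 h was 105 of 295 calls (35.6%, exact interval 30.1 to 41.3) where 23.4% was expected, with a mean of 36.5% ± 5.28 over libraries (SD, n = 3). Ptprs had 38 of 83 calls there (45.8%) where 25.3% was expected and Ptprf 21 of 61 (34.4%) where 20.5% was expected. The others had 46 of 151 (30.5%, exact interval 23.2 to 38.5) where 23.6% was expected. Beyond 50 kb the 7 genes had 391 of 1455 (26.9%) where 25.0% was expected. All genes with a start site had 9.63% ± 1.20 within 1 kb, 25.7% ± 2.24 from 1 to 5 kb, 27.6% ± 2.46 from 5 to 50 kb and 26.4% ± 2.98 beyond (SD, n = 3). The difference between the 7 genes and all genes was not tested. At 6 h the 7 genes had 5 undeaminated of 27 calls from 1 to 5 kb (18.5%) on 9 reads, above the 7.15% expected and beside 6.65% ± 0.182 over all genes (SD, n = 2). That is the other direction from 12 h.

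**Figure D3:**
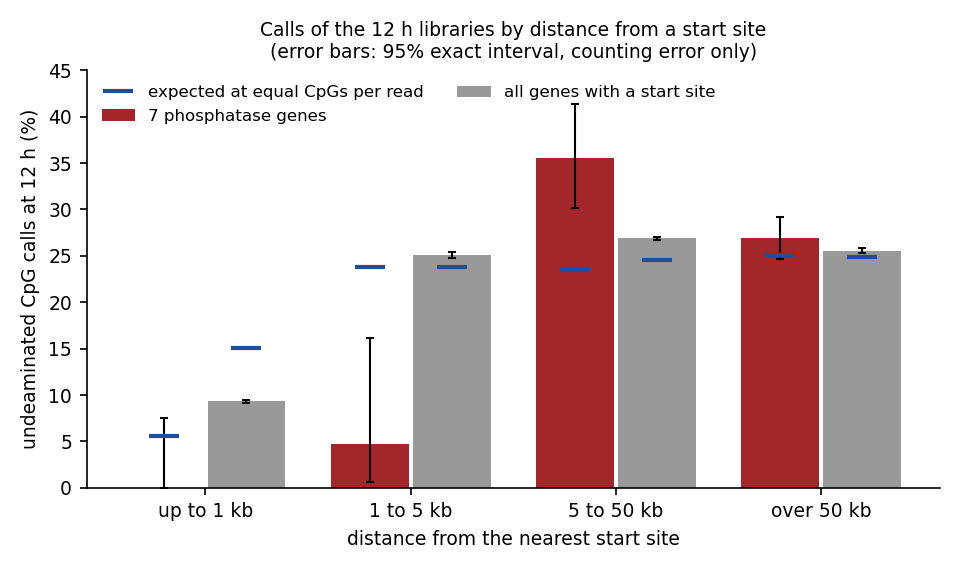
Percentage of 12 h calls undeaminated by distance from the nearest RefSeq start, for the 7 phosphatase genes with a start (red) and for all genes with a start (grey), with 95% exact intervals and blue marks for the level expected at equal CpGs per read. The phosphatase genes stand at 0 of 47 and 2 of 42 calls in the 2 classes nearest to the start and at 35.6% from 5 to 50 kb.

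Reads with at least 8 CpGs can be read one molecule at a time. At 12 h one such read of 20 CpGs lay 0.066 kb downstream of the start of Ptprm, one of 14 CpGs lay 0.22 kb from the start of Ptprg and one of 12 CpGs lay 0.669 kb from that of Ptprt, and all 46 CpGs were deaminated. They are 46 of the 47 calls within 1 kb given above. Another 8 reads lay over 1 kb from a start, counting 1 in Ptprd that was 509 kb from the nearer end of the gene, and 26 of their 84 CpGs were undeaminated (31.0%). They ranged widely: 8 of 10 in Ptprt and 8 of 11 in Ptprf at the high end, then 5 of 11 in Ptprg, 2 of 8 in Ptprk, 1 of 8 in Ptprm and 2 of 17 in Ptprd, and 0 of 8 in a second read of Ptprf and 0 of 11 in Ptprn2 at the low end. Reads of this kind over all genes at 12 h averaged 4.34% ± 1.35 within 1 kb of a start and 20.0% ± 3.31 farther away (SD, n = 3). Before induction 0 of 27 CpGs were undeaminated on a read over the start of Ptprf, whose sequence is printed above, and 1 of 12 on a read 0.517 kb from the first start of Ptprs.

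**Figure D4:**
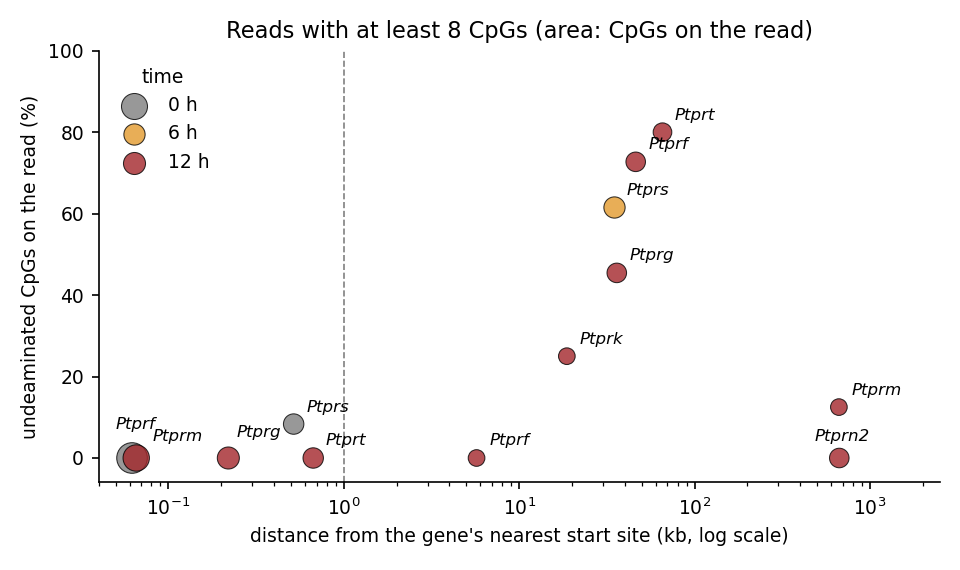
Share of undeaminated CpGs on each read with at least 8 CpGs in the 7 genes with a RefSeq start, against the distance from the nearest start (log scale), with the area of a point in proportion to its CpGs and colours for 0, 6 and 12 h. The 12 h reads within 1 kb (left of the dashed line) are all at 0%, and those farther away range between 0 and 80%.

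Along the 4 long genes with most calls, the 12 h level in windows moved up and down, with no course shared by all 4. Of the 65 windows of 100 kb in the 8 genes, 20 held at least 40 calls at 12 h, and these had levels between 14.6 and 38.0% with a median of 29.1%. In Ptprm the 2 windows next to the start were the lowest, with 12 of 69 calls (17.4%) and 5 of 31 (16.1%), and the window at the far end was the highest, with 36 of 99 (36.4%). The expected levels were 19.4 and 25.2% in these 2 windows and 24.6% at the far end. Divided at its middle, Ptprm had 32.9, 32.1 and 38.9% in the part away from the start in 12 h A, B and C, against 21.2, 23.5 and 22.2% in the part next to it. The 3 libraries of 12 h did not overlap between these parts. At 6 h the order was the other way on few calls. Next to the start A and B had 1 of 8 and 2 of 39, and away from it 0 of 8 and 2 of 51. This division was chosen after the windows had been seen and has no test, and no expected level was taken for the parts. Next to the start, 12 h A had 18 of 85 calls, which include the fully deaminated read of 20 CpGs beside the start site. There 12 h C had only 4 of 18 calls. In Ptprn2 the window next to the start was instead the highest, with 10 of 22 calls (45.5%), and 2 of 35 (5.71%) was the lowest.

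**Figure D5:**
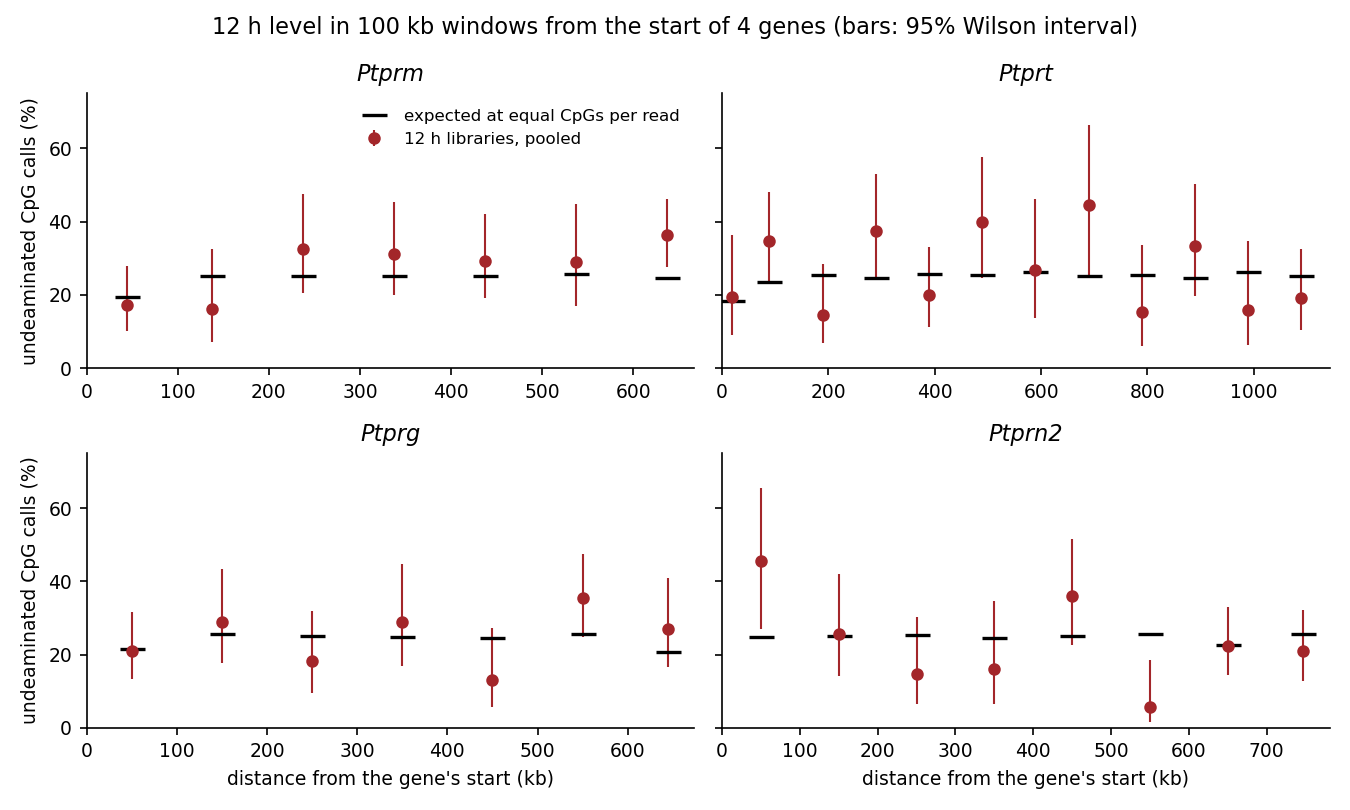
Level of the 12 h libraries, summed, in windows of 100 kb (the window at the far or near end is shorter) against the distance from the start of Ptprm, Ptprt, Ptprg and Ptprn2, with 95% Wilson intervals and black marks for the level expected at equal CpGs per read. Ptprm is lowest in its first 2 windows and highest, at 36.4%, in its last, and Ptprn2 ranges between 5.71 and 45.5%.

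Undeaminated calls were found on both strands. In reads with at least 2 CpGs, which show their strand by the order of their calls, the 12 h level was 32.3% ± 9.61 on the coding strand and 27.0% ± 2.48 on the template strand of the 7 genes (SD, n = 3), a difference smaller than the spread on the coding strand. The same strands had 0.858% ± 0.811 and 3.66% ± 4.80 at 0 h (SD, n = 3). Among reads of 2 to 5 CpGs at 12 h, 50.0% ± 3.95 had no undeaminated call and 10.7% ± 2.96 had all of them undeaminated, against 52.0% ± 3.30 and 7.71% ± 1.30 for the libraries (SD, n = 3). At 0 h, 129 of 133 such reads in the 8 genes had none (97.0%).

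None of the 13 other receptor-type phosphatase genes had 10 calls in each library, and together they stood at 25.9% ± 4.93 at 12 h, against 0 at 0 h (SD, n = 3). Those with the most calls were Ptpro, a podocyte and neuronal receptor, with 32 of 130 calls at 12 h against 0 of 34 at 0 h, Ptpre with 28 of 102 against 0 of 24, and Ptprj with 22 of 75 against 0 of 28. Of the 17 non-receptor genes 2 were tested, and 1 of them rose relative to its libraries. This was Ptpn14, a phosphatase that binds the growth regulator YAP, with 102 of 259 calls at 12 h (39.4%) against 1 of 119 at 0 h and an estimate of 15.7 ± 2.39 points (limma, adjusted p = 0.0147), a call that was lost on the logit scale and in the quasi-binomial test, with 1 call per read (adjusted p = 0.631, limma), with at least 5 calls in each library (0.0511), and without library 12 h A (0.0780) or 12 h B (0.0991). The other, Ptpn13, had 12.8 ± 4.42 points and did not pass (limma, adjusted p = 0.294). Of 30 ligand and partner genes 2 were tested and neither passed, namely Gpc6, a glypican that LAR receptors bind, with 0.528 ± 1.84 points, and Trio, a LAR-binding exchange factor, with 2.16 ± 4.84 points.

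The 5 genes whose levels over the 8 libraries came nearest to the pooled level of the phosphatase genes were 2900026A02Rik, Wwox, Asic2, Enox1 and Anks1b. Their root mean square differences from it were between 1.37 and 2.76 points, where the median of the 346 genes was 5.98 points.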

How the data were processed

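DNA (10 ng, fragments of about 300 bp) was glucosylated, deaminated and read with 150 bp chemistry, per the labels' protocols. The read names hold 3 runs. The authors deposited, per the file headers, methylation extractor output of Bismark 0.22.3: 1 call letter per CpG cytosine and read, undeaminated or deaminated. The submitters' processing notes also name Trim Galore and the build GRCm38, while for alignment settings and removal of duplicates the sources used here give nothing. Repeats of another read with at least 4 CpGs, the same in positions and calls, were 0.736 to 2.60% of such reads per library.

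Gene spans came from a table of GRCm38.p6, matched by symbol for all 8 genes. The genes, the lists of related genes and the tests were chosen with earlier results of these data known. Named were the 8 genes, the 3 genes with the most calls of each list and the 5 genes nearest in level. Deviations were fitted with limma 3.58.1 in R 4.3.3 over all 8 libraries with 1 factor of 3 groups, weighted by calls over the binomial variance, with moderated variances and Benjamini-Hochberg adjustment over the genes that had 10 or more calls in each library; the script was tested on simulated data. Descriptions used Python 3.11.15 and exact tests scipy 1.17.1. Library depth was 75023 to 485941 calls, and intervals and the limit of 3 counts for a count of 0 cover counting error only. The alternatives were no weights, a logit scale, a quasi-binomial test, minima of 5 and 20 calls, 1 call per read, repeats kept once, no calls within 1 kb of gene ends, median centring, a replicate block, other flanks and each library left out.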

Additional observations from a re-analysis of the deposited data

How the results depend on the processing

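None of 150 alternative values of the 5 phosphatase genes tested reached an adjusted p of 0.05, and the lowest was 0.130, for Ptprm against the plain library level without a 6 h library. The 150 values cover all 5 genes for 12 h against 0 h at equal CpGs per read, and Ptprm and Ptprt against their flanks. For 12 h against 6 h and against the plain library level they cover Ptprm alone. Values for 6 h against 0 h are not among them. The logit scale adds 0.5 calls to the undeaminated ones, which at 0 h can be more than the number expected. On it the value for 12 h against 0 h turned negative in Ptprm (-0.24) and Ptprt (-0.78), as it did in Ptprm against the library level (-0.18) and against the flanks in Ptprm (-0.17) and Ptprt (-0.0074). The quasi-binomial test gave a negative log odds ratio in Ptprt (-0.15) and, against the flanks, in Ptprm (-0.18) and Ptprt (-3.54). Ptprm stayed positive at 3.48 for 12 h against 0 h, with an adjusted p of 0.753 in the quasi-binomial test. The size of that ratio depends on the fraction of a call that was added to 0 of 82 undeaminated calls at 0 h. Leaving out a library in turn gave 5.22 to 5.75 points in Ptprm, but -0.997 to 3.65 in Ptprt, -4.50 to 3.77 in Ptprg, -2.96 to 0.531 in Ptprd and -4.79 to 1.49 in Ptprn2. Median centring, which takes off the median of the tested genes in each library, lowered Ptprm to 3.93 points (limma, adjusted p = 0.422). It also lowered Ptprt to 0.174, Ptprg to -1.86, Ptprd to -2.92 and Ptprn2 to -3.52. Against the library level Ptprm fell to 3.95 points (limma, adjusted p = 0.393).

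Over all genes, the 3 calls at equal CpGs per read for 12 h against 0 h became 0 on the logit scale, 0 in the quasi-binomial test, 1 with at least 5 calls and 0 with 1 call per read, and 0 to 3 without a library. The 7 calls against the library level became 4 without weights, 0 on the logit scale, 0 in the quasi-binomial test and 0 with 1 call per read, and 1 to 8 without a library. For 12 h against 6 h the 0 calls became 5 on the logit scale and 1 without gene ends, and for the flanks 1 without weights and 2 with at least 20 calls. The cause was not tested. Fewer genes were fitted with 1 call per read (80) and with at least 20 calls in the flanks (32).

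With 1 call per read or with at least 20 calls, Ptprg and Ptprn2 alone of the 5 genes had enough calls to be fitted, and with flanks of 100 kb neither Ptprm nor Ptprt had. The excess of the deviation of the 8 genes pooled at 12 h over that at 0 h, 1.86 points, was 0.742 with 1 call per read and 0.450 as the mean of the 5 genes tested. It was 1.30 to 2.53 without a library and 1.04 to 2.59 without a gene. The correlations of same-lettered deviations over genes lay between -0.146 and 0.0161. Differently lettered libraries were not compared and calls per gene are few, so these values cannot tell whether the letters pair the libraries. With the letter as a replicate block, 4 genes were called for 12 h against 0 h, 1 for 6 h against 0 h, 0 for 12 h against 6 h and 10 against the library level, and Ptprm had 5.63 points (limma, adjusted p = 0.352). Depth limits every statement on single genes: Ptprk, Ptprs and Ptprf could not be tested at 10 calls per library, and no group has enough libraries for an exact p under 0.1.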
